A study of Mus musculus with 6 samples.

Results

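Tetrahydrobiopterin (BH4) is a pteridine cofactor that every nitric oxide synthase and the aromatic amino acid hydroxylases need. The 6 genes described here make, control or recycle it. Gch1 encodes GTP cyclohydrolase 1, which opens the pathway from GTP and is its rate-limiting step. Pts encodes 6-pyruvoyltetrahydropterin synthase and Spr encodes sepiapterin reductase, which complete the synthesis. Gchfr encodes the feedback regulator that binds GTP cyclohydrolase 1. Pcbd1 encodes the dehydratase and Qdpr the dihydropteridine reductase that return the oxidised cofactor to BH4 after it has been used by a hydroxylase. In blood vessels BH4 keeps nitric oxide synthase coupled, so that it makes nitric oxide and not superoxide, and in vascular smooth muscle cytokines are known to induce Gch1 together with the inducible nitric oxide synthase.

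The genes were chosen by symbol, as a known pathway, after results of the same comparison had been seen, so the knockout and wild-type values of the members are given as a description with no test. Of the 6 genes, 4 (Gch1, Pts, Spr and Qdpr) are among the 12389 genes of the tables used here, and all 4 were in the 12363 genes tested. The other 2, Pcbd1 and Gchfr, are not in these tables and were not analysed here. Every gene in the table reached at least 200.5 estimated reads in some library, so a gene outside it cannot be read as silent.

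The cells were primary vascular smooth muscle cells, which give the artery its contractile wall, grown out of pieces of mouse thoracic aorta and used without treatment at passage 6 or below. Of 6 libraries, 3 were of wild-type origin (WT). The other 3 (KO) are described as lacking LRRC8A in smooth muscle, a subunit that volume-regulated anion channels cannot do without. The sources used here give no strain, age, sex or Cre driver, and the groups rest on the sample titles because the genotype field says wild type for all 6. The study calls its replicates independent and biological, without saying whether they are single animals or pools.

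Estimated depth was 31.0 to 47.9 M reads per library. All values are scaled reads, that is, estimated reads after the authors' library scaling. Lrrc8a lay at 1221 to 2578 in WT and at 506 to 868 in KO, the direction the titles give. Its KO mean was 0.34 of the WT mean, so RNA of the gene remained, and loss of the protein was not tested here. Of 8 smooth muscle markers 6 were in the table, with a summed level of 16520 to 205102 in WT and 31498 to 106017 in KO, and Des and Myocd, markers of the mature contractile cell, were not. Acta2 and Tagln, which encode smooth muscle actin and transgelin, were present in all 6 libraries at 10651 to 130984 and 2240 to 58393, with WT replicate 3 the highest for both, and they make up most of that sum. Their log2 differences, KO minus WT, were 0.14 (SE 1.02) and 0.56 (SE 1.23). The other 4 markers had values below 0, with Myh11 at -2.63 (SE 1.16), Lmod1 at -2.46 (SE 1.37), Cnn1 at -1.36 (SE 1.80) and Smtn at -0.26 (SE 0.19), for a median of -0.81 over the 6. The groups overlapped for all 6 markers and 0 passed the limma test, and the part of these markers in the results that follow was not tested.

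The sequence just upstream of each analysed gene is shown because the groups did not overlap for Gch1, and the other 3 are set beside it. In the rat gene, cyclic AMP is known to act through a cAMP response element and a CCAAT box close to the start. The sequences are RefSeq's on GRCm38.p6, found for all 6 members, read 5′ to 3′ on the strand of the gene and ending before the first base of the GENCODE M21 gene. Gch1 is chr14:47189414-47189663, Pts chr9:50528725-50528906, Spr chr6:85137767-85138014 and Qdpr chr5:45450237-45450479, all on the minus strand. Capitals mark the CCAAT box (CCAAT), the core of the cAMP response element (TGACG) and the GC box (GGGCGG), each on either strand.
Gch1: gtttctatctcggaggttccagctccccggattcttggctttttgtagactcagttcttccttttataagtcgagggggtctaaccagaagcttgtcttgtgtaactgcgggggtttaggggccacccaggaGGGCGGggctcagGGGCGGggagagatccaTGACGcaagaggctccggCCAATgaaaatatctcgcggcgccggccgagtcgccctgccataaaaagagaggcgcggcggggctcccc
Pts: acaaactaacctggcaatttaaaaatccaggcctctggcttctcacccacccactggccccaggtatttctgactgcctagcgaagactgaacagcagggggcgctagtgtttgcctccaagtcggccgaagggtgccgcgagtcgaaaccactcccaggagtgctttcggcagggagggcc
Spr: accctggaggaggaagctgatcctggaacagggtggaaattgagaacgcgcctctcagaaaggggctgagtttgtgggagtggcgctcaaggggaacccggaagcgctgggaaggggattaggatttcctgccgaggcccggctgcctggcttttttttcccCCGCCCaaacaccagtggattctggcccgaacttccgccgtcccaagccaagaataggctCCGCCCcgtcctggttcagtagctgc
Qdpr: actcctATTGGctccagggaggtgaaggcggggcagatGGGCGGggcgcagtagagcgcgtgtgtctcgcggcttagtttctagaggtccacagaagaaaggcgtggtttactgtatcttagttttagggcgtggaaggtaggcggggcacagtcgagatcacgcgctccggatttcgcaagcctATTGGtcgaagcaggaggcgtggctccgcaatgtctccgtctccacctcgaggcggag

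Among the 4 printed windows the cAMP response core stood in that of Gch1 alone, at bases 88 to 84 before the RefSeq start, with a CCAAT box at bases 70 to 66 and GC boxes at bases 118 to 113 and 105 to 100. Qdpr had a pair of CCAAT boxes on the opposite strand and a GC box at bases 212 to 207, Spr a pair of GC boxes on the opposite strand, and Pts no match to these 3 motifs. The Pts window held 182 bases, against 250 for Gch1, 248 for Spr and 243 for Qdpr. The bases nearest the RefSeq start of Pts lie inside its GENCODE gene and were not searched. Over 32851 RefSeq windows of 250 upstream bases, 33.9% held a CCAAT box, 17.8% a TGACG and 32.7% a GC box. The NF-kB motif, searched in its general form and present in 7.25% of all windows, matched the last 10 bases before the Gch1 start on both strands. A TATAAA, present in 12.4% of windows, was found far upstream in Gch1 at bases 188 to 183 on the opposite strand, and CACGTG, in 6.02%, in none of the 4. These matches describe letters in a short window and are not evidence of binding.

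Gch1 (ENSMUSG00000037580, GRCm38 chromosome 14, 47153895 to 47189413) measured 701, 846 and 1110 scaled reads in the WT cultures (replicates 1, 2 and 3) against 171, 246 and 174 in the KO cultures. Every KO library was below every WT library, and the lowest WT value was 2.85 times the highest KO value. Mean levels were 886 ± 207 for WT and 197 ± 42.6 for KO (SD, n = 3 each). On the log2(value + 2) scale, on which all differences here are given as KO minus WT, Gch1 was at -2.15 (limma SE 0.28), or 4.44-fold lower. The difference was -2.02, -1.77 and -2.66 in the same-numbered libraries 1, 2 and 3. Of the 12363 genes tested, 116 (Gch1 among them) had a log2 difference this low or lower. The authors' deposited table gives a log2 ratio of -2.17 for it. In bulk RNA, fewer cells that express a gene and less RNA of it per cell cannot be told apart. A pair of processed pseudogenes, Gm49134 and Gm18811, lie within the Gch1 span but share no exon with it.

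Pts (ENSMUSG00000032067, chromosome 9, 50521617 to 50528724), the second enzyme of the synthesis, measured 762, 458 and 365 scaled reads in the WT cultures and 778, 372 and 253 in the KO cultures, in replicate order. The WT values lay inside the KO range, and within each group replicate 1 was the highest and replicate 3 the lowest. The log2 difference was -0.26 (SE 0.47), with 0.03, -0.30 and -0.53 in the same-numbered libraries. Its sign turned to 0.03 without WT replicate 1 and to 0.10 without KO replicate 3.

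Spr (ENSMUSG00000033735, chromosome 6, 85130176 to 85137766), the last enzyme of the synthesis, measured 2841, 2311 and 5869 scaled reads in the WT cultures and 1879, 1919 and 3526 in the KO cultures, in replicate order. Replicate 3 was the highest in both groups, and KO replicate 3 lay above WT replicates 1 and 2, so the groups overlapped. Mean levels were 3674 ± 1920 for WT and 2441 ± 940 for KO (SD, n = 3 each). This is a log2 difference of -0.53 (SE 0.41). In the same-numbered libraries KO was lower each time, by -0.60, -0.27 and -0.73 on the log2 scale. Without WT replicate 3 the difference was -0.13 (SE 0.33), and with the replicate number as a block it stayed at -0.53 with an SE of 0.18.

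Qdpr (ENSMUSG00000015806, chromosome 5, 45434021 to 45450236), the recycling enzyme, measured 1606, 1265 and 1240 scaled reads in the WT cultures and 1417, 1313 and 1617 in the KO cultures, in replicate order. All 6 values lay within 1.30-fold of each other and the groups overlapped. The log2 difference was 0.08 (SE 0.20), with -0.18, 0.05 and 0.38 in the same-numbered libraries. The antisense gene Gm42413 overlaps Qdpr exons, and since the counting is not stated to use strand, reads of the pair cannot be told apart.

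**Figure D1:**
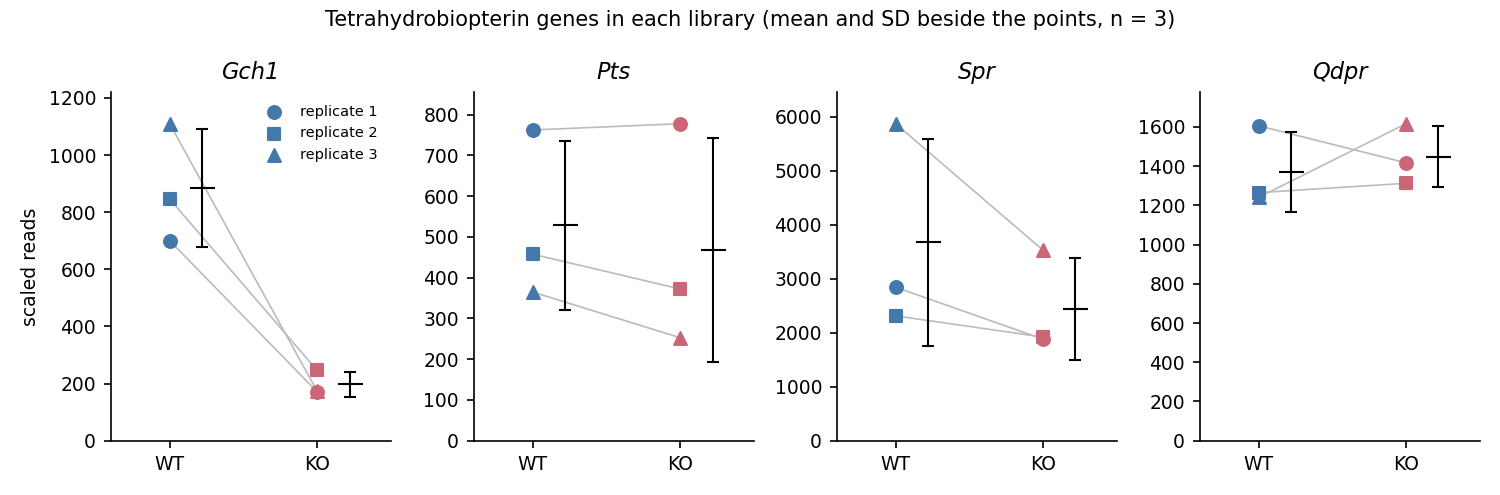
Scaled reads of Gch1, Pts, Spr and Qdpr in each WT and KO library, with 1 panel a gene, an axis from 0, grey lines joining libraries of the same number, and the mean with its SD (n = 3) beside the points. The Gch1 values of 171 to 246 in KO lie apart from 701 to 1110 in WT, and the groups of the other 3 genes overlap.

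Among the 4 analysed members, 1, Gch1, was lower in each KO library than in any WT library, as were 4.51% of all genes tested, and 0 were higher in each KO library, as were 3.91%. No member was past an adjusted p of 0.05 in limma, where 0% of all genes were called, with 447 genes at an unadjusted p under 0.05 (limma-voom: 0 called, 368 genes). Gch1, alone of the 4, was in the authors' deposited table past a false discovery rate of 0.05, as were 0.525% of its 12389 genes. limma with library quality weights also called 1 of the 4, Gch1, against 0.243% of all genes, in a fit whose weights stopped short of convergence and ran from 0.361 for KO replicate 3 to 7.99 for WT replicate 2. As the members were chosen with this comparison known, nothing is read from these counts. Removing any 1 library left Gch1 between -2.32 and -1.98 on the log2 scale.

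**Figure D2:**
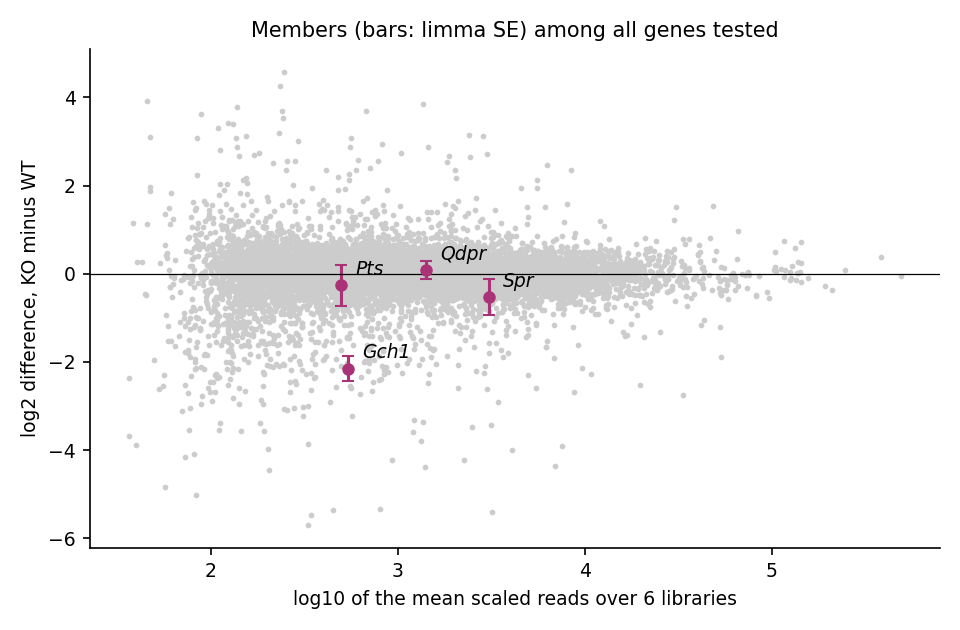
Log2 difference, KO minus WT, against the log10 mean of the scaled reads over 6 libraries for the 12363 genes tested (grey), with the 4 members marked and bars for the limma SE. Gch1 lies at -2.15, while Pts, Spr and Qdpr lie between -0.53 and 0.08. Counting the member itself, 116 genes lie as low as Gch1 or lower, 1051 as low as Spr, and 2505 as low as Pts.

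The members also varied to different degrees among cultures of the same genotype, a spread in which the difference between groups has no part. The residual SD on the log2 scale was 0.18 for Qdpr, above 11.96% of genes. For Gch1 it was 0.31, above 40.8% of genes, while Spr and Pts had 0.62 and 0.70, above 78.1% and 81.6%. With the replicate number as a block the residual SD was 0.17 for Spr and 0.20 for Pts, against 0.32 for Gch1 and 0.20 for Qdpr. Spr and Pts thus varied mainly with the number that the WT and KO libraries share, and Gch1 and Qdpr did not. Spr was highest and Pts lowest in replicate 3 of both genotypes, so that Pts per Spr, a ratio free of any library factor, was 0.315, 0.233 and 0.0731 in the WT cultures and 0.487, 0.228 and 0.0842 in KO (per length of the principal transcript).

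Levels of different genes were compared per kb of the principal coding transcript of GENCODE M21 (2.775 kb for Gch1, 1.046 for Pts, 1.230 for Spr and 1.380 for Qdpr). In WT, Spr had 2987 ± 1561 scaled reads per kb, Qdpr 993 ± 148, Pts 505 ± 199 and Gch1 319 ± 74.8 (SD, n = 3 each). Spr was above Qdpr and Qdpr above Pts in every library, but the WT values of Pts, 349 to 729, and Gch1, 252 to 400, overlapped, and in WT replicate 3 Gch1 was above Pts. In KO the order was the same, with Spr at 1985 ± 764, Qdpr at 1050 ± 112, Pts at 447 ± 263 and Gch1 at 71.0 ± 15.4 (SD, n = 3 each), and no neighbours overlapped. Among all genes with such a length, the mean level of Gch1 was above 42.3% in WT and above 9.04% in KO. With the union of all annotated exons as length, which is 6.101 kb for Pts, Gch1 lay above Pts in WT at 142 against 86.6 per kb, and in KO below it at 31.5 against 76.6, by the group means. WT replicate 1 went the other way, with Gch1 at 112 and Pts at 125. On that length the KO mean of Qdpr, 810, also lay above that of Spr, 689, but in KO replicate 3 Qdpr was at 904 and Spr at 995.

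**Figure D3:**
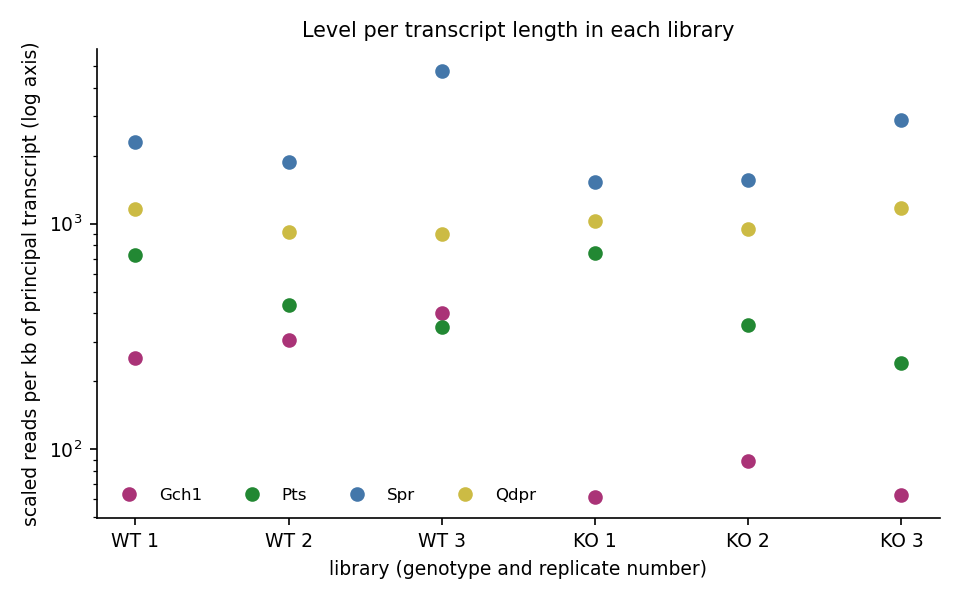
Scaled reads per kb of principal transcript (log axis) for Gch1, Pts, Spr and Qdpr in each of the 6 libraries. Spr is highest and Qdpr second in every library, and Gch1 is at 252 to 400 in WT and at 61.7 to 88.7 in KO, where it is the lowest of the 4.

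Ratios within a library do not depend on how libraries were scaled. Gch1 per Pts was 0.346, 0.697 and 1.15 in the WT cultures and 0.0830, 0.249 and 0.259 in the KO cultures, with no overlap between the groups. Gch1 per Spr was 0.109, 0.162 and 0.0838 in WT and 0.0404, 0.0569 and 0.0218 in KO, again with no overlap. For Gch1 per Qdpr the values were 0.217, 0.333 and 0.445 in WT and 0.0601, 0.0932 and 0.0534 in KO. These 3 ratios were lower in every KO than in every WT library, by -1.90, -1.63 and -2.25 on the log2 scale, whereas the 3 ratios among Pts, Spr and Qdpr overlapped between the groups. The 3 ratios with Gch1 share its values, which did not overlap on their own, and are not 3 separate results. As a share of the 4 genes' summed level per kb, Gch1 made up 6.84 ± 1.57% of WT and 2.09 ± 0.811% of KO levels (SD, n = 3 each).

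Of 9 genes that use the cofactor or serve its users, among them the nitric oxide synthases Nos1, Nos2 and Nos3, the hydroxylases Th, Tph1 and Tph2, the alkylglycerol monooxygenase Agmo and the co-chaperone Dnajc12, 0 are in the tables, so none was analysed here.

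Enzymes of side and salvage routes to BH4 were in part lower in KO by value, but 0 of the 7 tested passed in either direction. The median log2 difference of these 7 was -0.42, with 6 below 0, where all genes tested had a median of 0.00 and 49.6% below 0. The carbonyl reductase Cbr1 averaged 1482 ± 79.5 scaled reads for WT and 1077 ± 151 for KO (SD, n = 3 each). Its log2 difference was -0.47 (SE 0.19). Cbr3, a related reductase, had -0.42 (SE 0.22), and like Cbr1 it did not overlap between the groups. Its lowest WT value, 2016, lay close to its highest KO value, 2001. Of all genes tested, 4.51% were lower in each KO library than in any WT library. The aldose reductases Akr1b3 and Akr1b10 had -0.81 (SE 0.39) and -0.45 (SE 0.28) with overlapping groups. The limma adjusted p was 0.999 for each of these genes.

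In the cytokine pathways known to induce Gch1, 0 of 16 genes passed, as did 0 of the 12363 genes tested. The median log2 difference was -0.15 with 15 of 16 below 0, where all genes tested had a median of 0.00 and 49.6% below 0. Most of the 16 differences lay within their SE of 0. Il1r1, the receptor of interleukin-1, measured 966, 1301 and 1937 scaled reads in the WT cultures and 478, 540 and 856 in the KO cultures. The groups did not overlap, with the lowest WT and the highest KO value close together, and the log2 difference was -1.15 (SE 0.34, limma adjusted p = 0.999). Stat3, a transcription factor of cytokine signalling, had -0.54 (SE 0.29), and the tumour necrosis factor receptors Tnfrsf1a and Tnfrsf1b had -0.30 (SE 0.21) and -0.46 (SE 0.52). The leukocyte markers Lyz2, Csf1r and Cd68 also had lower mean values in KO, with a summed level of 1233 to 1594 in WT and 392 to 1197 in KO. The groups overlapped for Csf1r and Cd68 but not for Lyz2, and Csf1r in KO replicate 3, at 899, was above every WT library. The other 5 of 8 leukocyte markers, Ptprc among them, and 7 of 8 endothelial markers are not in the tables. Mesothelial and epithelial markers, 5 of 8 in the tables, summed to 5625 to 11590 in WT and 1104 to 6157 in KO. Of these, 4 had log2 differences below 0, while Krt19 was at 1.16 (SE 0.84), and the groups overlapped for each gene. All 6 fibroblast markers summed to 18120 to 65470 in WT and 21035 to 58537 in KO, with 4 below 0 and 2 above. Single fibroblast markers varied widely within WT alone, Col14a1 from 108 to 34255 and Lum from 4.74 to 3064. The part of other cells in the Gch1 values was not tested.

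For nitric oxide supply and signalling, 0 of 15 genes passed, with a median log2 difference of 0.14 and 6 of 15 below 0. Of all genes tested, 0 passed and 49.6% were below 0. Ddah2, a gene named for the breakdown of the nitric oxide synthase inhibitor dimethylarginine, averaged 1441 ± 430 scaled reads for WT and 2305 ± 292 for KO (SD, n = 3 each). Activity of its protein was not tested. KO was higher without overlap, by 0.71 on the log2 scale (SE 0.27). Of all genes tested, 3.91% were higher in each KO library than in any WT library. Gucy1b1, a subunit of the nitric oxide receptor guanylate cyclase, was low outside KO replicate 1. It measured 22.5, 39.7 and 69.6 in the WT cultures and 369, 74.0 and 132 in the KO cultures. Here too KO was higher without overlap, by a log2 difference of 1.90 (SE 0.83). The lowest KO value, 74.0, lay close to the highest WT value, 69.6, and KO replicate 1 stood far above the rest. Ass1, which helps to regenerate arginine, had -0.50 (SE 0.24), and the cyclic GMP-dependent kinase gene Prkg1 had -1.42 (SE 1.08), both with overlapping groups. Each of the 4 had a limma adjusted p of 0.999. In GTP synthesis, which supplies the substrate of GTP cyclohydrolase 1, 0 of 13 genes passed, the median was -0.01 (0.02 with total scaling and 0.01 with quantile normalization), and the log2 differences ran from -0.33 for Impdh1 to 0.35 for Paics, with Guk1 at -0.31 and Ppat at 0.24.

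**Figure D4:**
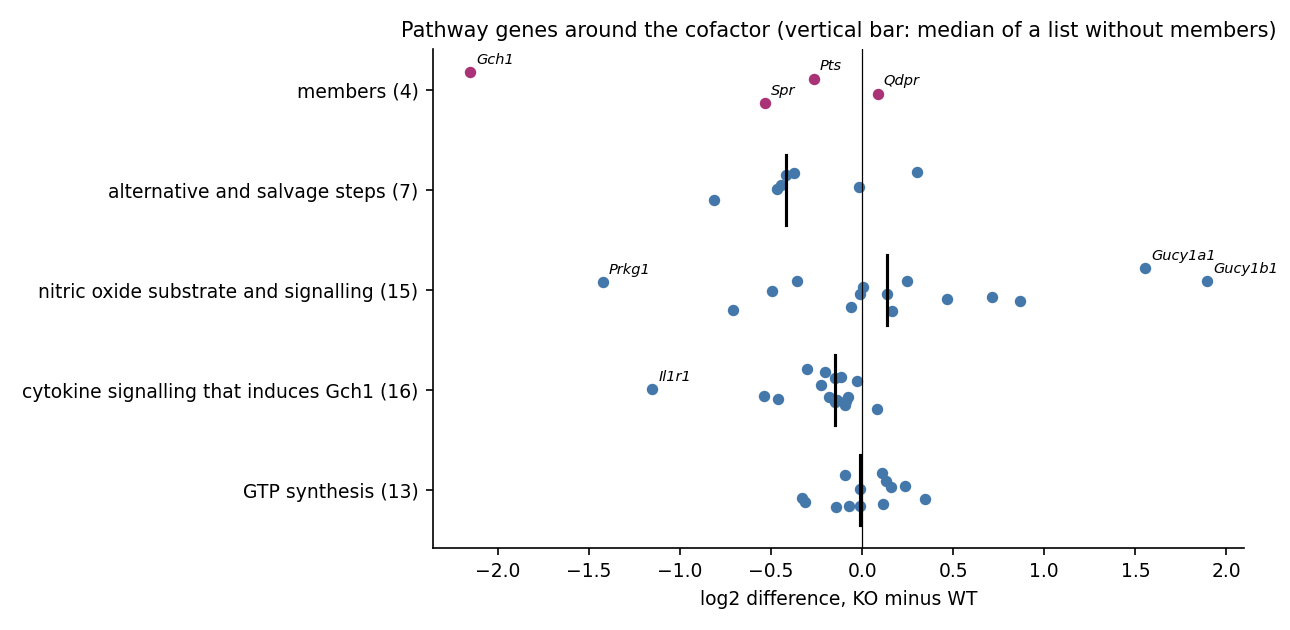
Log2 difference, KO minus WT, of every tested gene of the members (4), the side and salvage routes (7), nitric oxide supply and signalling (15), the cytokine pathways (16) and GTP synthesis (13), with each point a gene, a vertical bar for the median of each list other than the members, and vertical scatter without meaning. Gch1 at -2.15 is the lowest point, and GTP synthesis genes stay between -0.33 and 0.35.

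The genes whose log2 values were most like each member over the 6 libraries were ranked by Pearson correlation among 10423 named genes with a mean of at least 200. Nearest to Gch1 were Hfe (r = 0.990), the haemochromatosis protein that binds the transferrin receptor, Elac1 (0.989), a tRNA-processing nuclease, and Kbtbd2 (0.988), an adaptor of the cullin 3 ubiquitin ligase. Hfe measured 351, 462 and 483 scaled reads in the WT cultures and 162, 225 and 169 in the KO cultures, and its libraries had the same rank order as those of Gch1. The 6 points of such a correlation fall into the 2 genotypes, so any gene with a similar gap between them scores high. Pts was closest to Rbms1 (0.994), an RNA-binding protein gene, Spr to Garem2 (0.987) and Qdpr to the splicing factor Srsf2 (0.988). Between the members themselves the correlations were weak or moderate, from -0.45 for Gch1 with Qdpr and for Pts with Spr to 0.52 for Gch1 and Spr.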

How the data were processed

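Poly(A) RNA of 6 cultures was sequenced in stranded, paired-end mode, per the labels' protocols. Per the submitters' processing notes, processing named STAR, Partek, DESeq2, GRCm39 and mm39, each with no role or version. The deposited per-library values are a scaled signal and not raw counts: 1 read is worth between 0.712 and 1.19 by library, and 82.5% to 92.4% of values up to 50 reads lie within 0.05 reads of a whole number, too few to recover whole reads. The authors' deposited comparison table gives a p-value, a false discovery rate, a ratio and a log2 ratio of KO over WT. Its starts equal those of GENCODE M21 for 12341 of 12385 genes, so positions are given on GRCm38.

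limma 3.58.1 (R 4.3.3, statmod 1.5.0) was run on log2(value + 2) with genotype alone, a mean trend and robust priors, for the 12363 genes with at least 10 in at least 3 libraries. P-values are two-sided with Benjamini-Hochberg adjustment over all of them, and the fit was tested on simulated data. The simulation gave every gene the same SD and no replicate effect, so it does not cover the unequal spreads seen here. Differences on the log2(value + 2) scale understate the change of low genes. The median residual SD over genes was 0.36 on the log2 scale. If same-group cultures share an origin, p-values measure only the spread between these samples.

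Deviations from the group means correlated between WT and KO libraries of equal number (0.43, 0.15 and 0.39). All 3 exceed 0.1, so differences are also given between libraries of equal number, and a block for that number was run as an alternative. The main fit, its SEs and its counts take no account of this pairing. The labels do not explain the numbering. Transcript and exon-union lengths were chosen after the values were seen. Members and lists were chosen with earlier results of these data known. For each pathway list the text names the 4 tested genes with the smallest p, and for each member the genes nearest by correlation. Which cell type markers to name was decided after their values were seen. The alternatives were other scalings, filters, pseudocounts, the other per-library table, limma-voom, other priors, library weights, a block for the replicate number, and each library left out in turn. Some listed genes are not reported here.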

Additional observations from a re-analysis of the deposited data

How the results depend on the processing

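The log2 difference of Gch1 was below 0 in all 21 settings run, from -2.16 to -1.96 with all libraries and from -2.32 to -1.98 without each library in turn. For Spr it ran from -0.53 to -0.25 with all libraries and from -0.83 to -0.13 without each library, for Qdpr from 0.04 to 0.12 and from 0.00 to 0.20, and for Pts from -0.28 to -0.08 and from -0.71 to 0.10. In each of the 4 genes all 20 alternatives moved the value by less than the residual SD. The other filters, the other priors and the replicate block alone cannot change a gene's log2 difference, only its SE. For Pts the residual SD was 0.70, wide enough to hold its changes of sign to 0.03 and 0.10. The number of genes past the threshold was 0 in the model without block or weights, 30 with library weights, 5 with the replicate block and library weights, and 0 with the replicate block alone, where 917 genes had an unadjusted p under 0.05. Without each library it ran from 0 to 1, the 1 being called without KO replicate 1. The cause was not tested. No scaling moved the median of all genes by over 0.1, the highest being 0.03. Ranked by Spearman, 12 genes had a rho of 1 with Gch1, and 1 of its 3 nearest genes, Hfe, was among them. The median of the GTP synthesis list was -0.01 as deposited and changed sign with total scaling (0.02) and quantile normalization (0.01); no other list median did under a scaling. At least 160 estimated reads stood behind each member's value in each library. With 3 cultures a group, the differences of Pts and Qdpr lay within their SE in the fit with genotype alone. With the replicate number as a block, Pts was at -0.26 with an SE of 0.22, and Qdpr at 0.08 with an SE of 0.19.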
